A study of Mus musculus with 8 samples.

Results

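The genes described are 10 members of the bone morphogenetic protein (BMP) pathway, chosen by gene name: the ligand *Bmp4*, the ligand antagonist *Grem1*, the pseudoreceptor *Bambi*, the SMAD genes *Smad6*, *Smad7* and *Smad9*, the inhibitor of DNA binding genes *Id1*, *Id2* and *Id3*, and the transcription factor gene *Atoh8*. All 10 were among the 20477 genes with enough reads to test, of 55421 gene identifiers in the table. They were measured in SSC culture, a primary culture of undifferentiated spermatogonia from testes of 6-day-old mice on a C57BL/6 X DBA/2 F1 background, grown on irradiated mouse embryonic fibroblasts (MEFs) as feeders. Each treatment lasted 2 days. Veh cultures received complete SSC medium, which holds GDNF, bFGF and serum products, with vehicle. RA cultures received the same medium with 100 nM retinoic acid. NR (nutrient restriction) cultures received 10% complete medium and 90% Earle's Balanced Salt Solution, so that growth factors and serum were diluted together with nutrients, and NRRA cultures received that diluted medium with 100 nM RA. There were 2 libraries of poly(A) RNA per condition, described in the study as independent biological replicates.

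BMP ligands bind paired type I and type II receptor kinases, which phosphorylate SMAD1, SMAD5 and SMAD9. These join SMAD4 in the nucleus and switch on target genes, among them *Id1*, *Id2*, *Id3*, *Atoh8* and the feedback inhibitors *Smad6*, *Smad7* and *Bambi*, while secreted antagonists such as Gremlin hold the ligand away from its receptor. ID proteins lack a DNA-binding region and capture the E proteins with which basic helix-loop-helix (bHLH) factors act. In the testis, BMP4 is known to act on spermatogonia, and *Id4* marks spermatogonial stem cells.

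Values are CPM, the number of reads of a gene per 1000000 reads of the library, scaled by edgeR's TMM factors. A gene "passed the test" at an adjusted p under 0.05 in edgeR's quasi-likelihood F test with Benjamini-Hochberg adjustment over all 20477 genes, and a "2-fold" call also required a fold change of at least 2. Standard errors (SE) are on the log2 scale. Total counts ran from 19261333 to 30023585 per library, so 1 CPM stood for 19.2 to 31.2 reads. *Stra8*, a gene that RA switches on in germ cells, was at 1.14 and 1.51 CPM in Veh and at 631.6 and 653 CPM in RA. Markers of both germ cells and fibroblasts were detected in every library. The summed CPM of 6 germ cell markers ran from 643.8 to 679.4 in Veh and 725.5 to 795.4 for RA. It ran from 835.7 to 867.1 for NR and 852.9 to 879.8 for NRRA. *Dazl* had the highest level of the 6. By mean level, *Dazl*, *Ddx4* and *Sycp3* were higher in NRRA than in Veh, and *Mael*, *Tdrd1* and *Dppa3* were lower. The summed CPM of 10 fibroblast markers ran from 13280 to 13390 in Veh and 10210 to 10990 for RA. It ran from 25070 to 26300 for NR and 21650 to 22360 for NRRA. In such mixed RNA, fewer cells of a type and less RNA per cell cannot be told apart. Comparisons against Veh share the Veh libraries, and the interaction uses all 4 conditions.

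The 10 genes did not move as a block. Against Veh, RA raised 1 and lowered 6 of them, NR raised 2 and lowered 4, and NRRA raised 7 and lowered 3. Over all tested genes, 19.8% were higher and 23.4% lower with RA, 21.7% higher and 22.2% lower with NR, and 30.1% higher and 28.7% lower in NRRA. The 2-fold calls were *Grem1* and *Atoh8* (both lower) with RA, *Atoh8* and *Bmp4* (higher) and *Grem1* (lower) with NR, and *Atoh8* and *Bmp4* (higher) and *Smad7* and *Grem1* (lower) with NRRA. At that fold, 4.74% of tested genes were higher and 2.75% lower with RA, 5.33% and 2.96% with NR, and 9.91% and 6.02% with NRRA. The middle log2 change of the 10 (their median) was -0.24 with RA, -0.06 with NR and 0.52 with NRRA, beside -0.02, 0.01 and 0.03 over all tested genes.

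**Figure D1:**
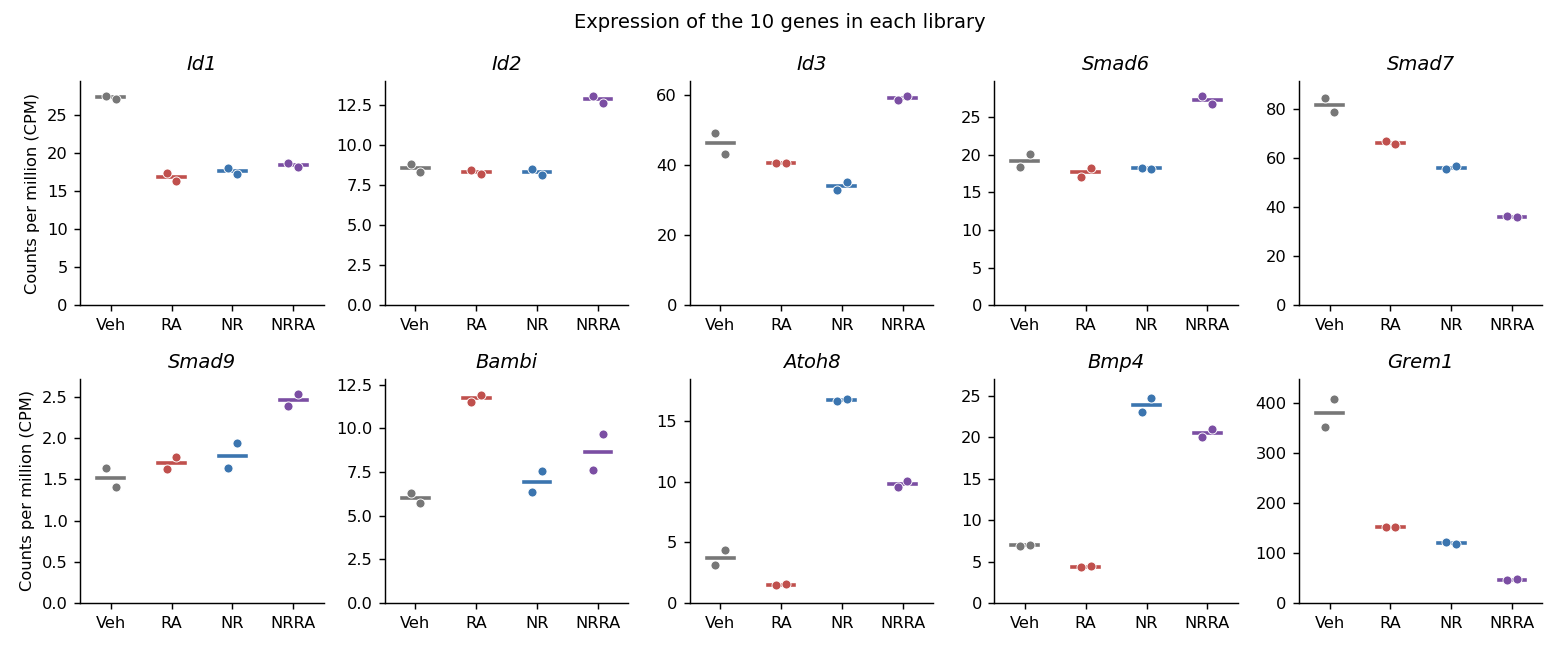
Normalised expression (CPM, vertical axis from 0) of the 10 genes in the 8 libraries by condition, with each point 1 library and each bar the mean of 2. *Id2*, *Id3*, *Smad6* and *Smad9* are highest in both NRRA libraries, *Id1* and *Grem1* are highest in both Veh libraries, and *Atoh8* and *Bmp4* are highest in both NR libraries.

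**Figure D2:**
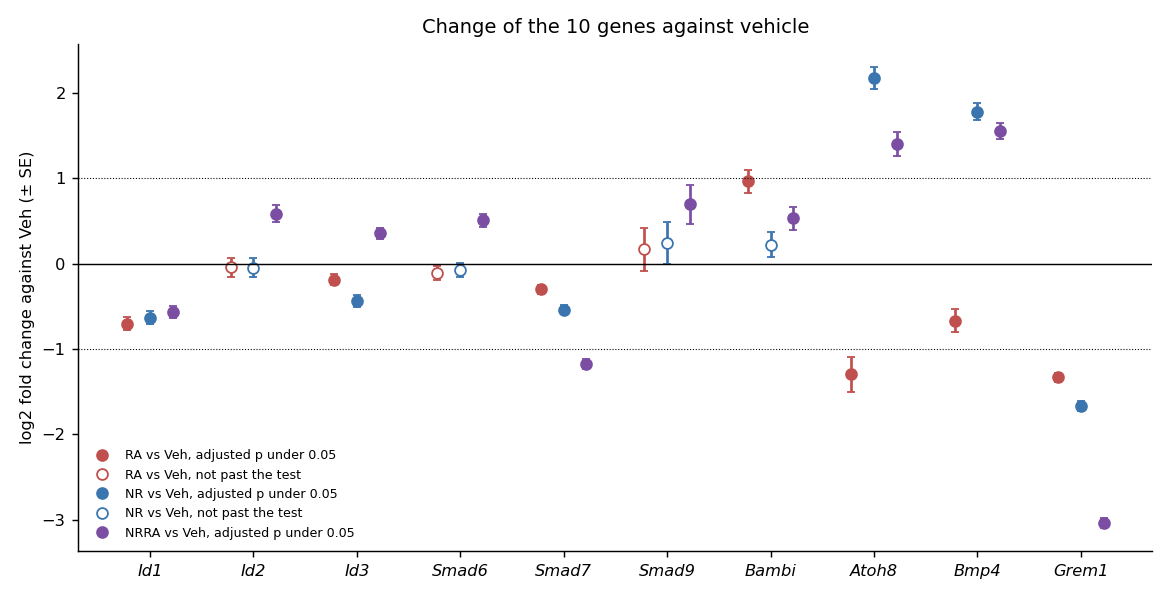
log2 fold change against Veh (vertical axis, ± SE) of each gene in RA, NR and NRRA, with filled points past the test, open points not past it, and dotted lines at a 2-fold change. *Id1* lies below 0 in all 3 comparisons, while *Id2* and *Smad6* lie near 0 in RA and NR and above 0 in NRRA.

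*Id2*, *Id3*, *Smad6* and *Smad9* had their highest levels in NRRA. The promoters of *Smad6* and *Smad9* are shown because these genes rose against Veh in NRRA and did not pass the test in RA or NR. *Id2* met the same terms, but its window overlaps an exon of *Id2* in GENCODE M21 and is not printed. Each line holds the 250 bases before the RefSeq start (GRCm38.p6), 5′ to 3′ on the gene's strand, with GGCGCC (a GC-rich SMAD element) and GTCT or its complement AGAC (the SMAD binding element) in capitals. The windows are chr9:64022060-64022309 on the minus strand for *Smad6* and chr3:54755332-54755581 on the plus strand for *Smad9*.
Smad6: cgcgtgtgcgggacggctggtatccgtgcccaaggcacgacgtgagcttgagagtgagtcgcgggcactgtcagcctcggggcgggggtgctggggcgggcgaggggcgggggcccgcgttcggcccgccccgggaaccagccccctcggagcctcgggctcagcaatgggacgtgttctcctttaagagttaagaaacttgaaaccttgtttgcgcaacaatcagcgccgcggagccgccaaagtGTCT
Smad9: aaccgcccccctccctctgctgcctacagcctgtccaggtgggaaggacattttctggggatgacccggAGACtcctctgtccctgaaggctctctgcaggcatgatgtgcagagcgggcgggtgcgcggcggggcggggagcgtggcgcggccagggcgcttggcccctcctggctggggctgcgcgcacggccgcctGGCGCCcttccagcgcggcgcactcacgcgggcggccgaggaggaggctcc
The *Smad9* window held 1 copy of each kind of element, and the *Smad6* window held 1 GTCT, at its last bases, and 0 copies of GGCGCC. Of the 7 members whose window was read, 3 held GGCGCC (*Grem1*, *Smad9* and *Id2*) and 6 held GTCT or AGAC. Of 32851 mouse promoter windows, 9.59% and 82.9% held them. These letters are matches in a window and say nothing of binding. The 7 windows include that of *Id2* and that of *Id3*, which lies inside the *Id3* gene. GC content of the 7 ran from 62.8% to 73.2%, and its part in the share with GGCGCC was not tested.

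*Id2* (chromosome 12, 25093799 to 25097140, minus strand, on GRCm38 in GENCODE M21) encodes an inhibitor of bHLH factors. It was at 8.82 and 8.34 CPM for Veh, 8.46 and 8.22 for RA, 8.53 and 8.13 for NR, and 13.1 and 12.7 for NRRA. The Veh, RA and NR libraries overlapped one another, and both NRRA libraries stood above all of them. *Id2* was 1.498-fold higher in NRRA than in Veh (log2 0.58, SE 0.10, adjusted p = 2.23e-05), 1.54-fold higher than in RA (adjusted p = 9.28e-06) and 1.55-fold higher than in NR (adjusted p = 9e-06). RA alone gave a log2 change of -0.04 (SE 0.11, adjusted p = 0.786) and NR alone -0.05 (SE 0.11, adjusted p = 0.776).

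*Id3* (chromosome 4, 136143497 to 136145755, plus strand), a second inhibitor of bHLH factors, was at 49.3 and 43.4 CPM for Veh, 40.8 and 40.7 for RA, 33.0 and 35.2 for NR, and 58.7 and 59.7 for NRRA. The 4 conditions did not overlap, with NR lowest and NRRA highest. The fall in NR was 1.36-fold (log2 -0.44, SE 0.07, adjusted p = 6e-06), and NRRA stood 1.28-fold above Veh (log2 0.35, SE 0.06, adjusted p = 2.35e-05) and 1.73-fold above NR (adjusted p = 7.63e-11). The lower level in RA (log2 -0.19, SE 0.07, adjusted p = 0.0231) was not a stable call. It was lost without the first Veh library (log2 -0.07), and also without either RA library or either NR library. The change also missed the threshold with DESeq2 (adjusted p = 0.0701) and with total counts as the scale (log2 -0.09, adjusted p = 0.319). The same held with a GC content and gene length trend removed (-0.13, adjusted p = 0.0539) and with the compared groups alone (-0.155, adjusted p = 0.121).

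*Smad6* (chromosome 9, 63953076 to 64022059, minus strand) encodes an inhibitory SMAD that acts mainly on BMP receptors. Its levels were 18.4 and 20.1 CPM for Veh, 17.1 and 18.3 for RA, 18.3 and 18.2 for NR, and 27.9 and 26.8 for NRRA. Both NRRA libraries were above the other 6, whose values spanned 17.1 to 20.1. *Smad6* was 1.42-fold higher in NRRA than in Veh (log2 0.51, SE 0.08, adjusted p = 2.77e-06), and higher than in RA (log2 0.62, SE 0.08, adjusted p = 1.54e-07) and NR (log2 0.58, SE 0.08, adjusted p = 4.36e-07). Against Veh, the log2 change was -0.11 in RA (SE 0.08, adjusted p = 0.299) and -0.08 in NR (SE 0.08, adjusted p = 0.502).

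*Smad9* (chromosome 3, 54755582 to 54801257, plus strand), which encodes a receptor-regulated SMAD, was the lowest of the 10 genes per length, at 0.348 CPM per kb over all libraries. Its levels were 1.64 and 1.41 CPM for Veh, 1.63 and 1.77 for RA, 1.64 and 1.94 for NR, and 2.39 and 2.54 for NRRA, from 27 to 79 reads per library. Both NRRA libraries were highest, and RA overlapped both Veh and NR. The log2 change in NRRA was 0.69 against Veh (SE 0.23, adjusted p = 0.0103), and it missed the threshold with DESeq2 (0.67, adjusted p = 0.0899), without the second Veh library (0.59, adjusted p = 0.0826) and without the second NRRA library (0.65, adjusted p = 0.0545). The change from RA to NRRA (log2 0.53, SE 0.21, adjusted p = 0.0467) was lost whichever library was left out, with adjusted p from 0.0547 to 0.181.

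*Id1* (chromosome 2, 152736251 to 152737410, plus strand), a widely used readout of BMP signalling, had its highest level in Veh, unlike *Id2* and *Id3*. It was at 27.5 and 27.2 CPM for Veh, 17.4 and 16.3 for RA, 18.1 and 17.3 for NR, and 18.8 and 18.2 for NRRA. Both Veh libraries were above the other 6. The falls against Veh were 1.63-fold in RA (log2 -0.71, SE 0.08, adjusted p = 5.09e-08), 1.55-fold in NR (log2 -0.63, SE 0.08, adjusted p = 2.11e-07) and 1.48-fold in NRRA (log2 -0.57, SE 0.08, adjusted p = 3.33e-07). The RA and NR libraries overlapped, and NRRA differed from RA by a log2 change of 0.14 (SE 0.08, adjusted p = 0.181) and from NR by 0.07 (SE 0.08, adjusted p = 0.538).

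*Smad7*, on chromosome 18, encodes the inhibitory SMAD that acts on both BMP and TGF-beta receptors. Its levels were 84.5 and 78.5 CPM for Veh, 66.9 and 65.6 for RA, 55.6 and 56.5 for NR, and 36.3 and 35.9 for NRRA. The 4 conditions did not overlap and fell in that order, and *Smad6* was highest where *Smad7* was lowest. The fall against Veh was 1.23-fold in RA (log2 -0.30, SE 0.05, adjusted p = 6.77e-05), 1.45-fold in NR (log2 -0.54, SE 0.06, adjusted p = 9.32e-09) and 2.26-fold in NRRA (log2 -1.18, SE 0.06, adjusted p = 1.27e-15). With total counts as the scale, the fall in RA was smaller (log2 -0.20, adjusted p = 0.00451).

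*Bambi*, also on chromosome 18, encodes a receptor-like protein without a kinase that dampens BMP and TGF-beta signals. It was at 6.29 and 5.73 CPM for Veh, 11.5 and 11.9 for RA, 6.36 and 7.56 for NR, and 7.61 and 9.70 for NRRA. It was the only one of the 10 genes with its highest level in RA, and the conditions did not overlap, although the lower NRRA library stood just above the higher NR library. *Bambi* was 1.95-fold higher in RA than in Veh (log2 0.97, SE 0.13, adjusted p = 1.44e-06), and in NR the change was 0.22 (SE 0.15, adjusted p = 0.235). In NRRA it was 0.53 (SE 0.14, adjusted p = 0.00152), a value that the NRRA libraries gave unequally: without the second it was 0.34 (adjusted p = 0.0735). With a GC content and gene length trend removed it was 0.32 (adjusted p = 0.0408).

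*Grem1* (chromosome 2, 113746164 to 113758646, minus strand) encodes Gremlin, a secreted antagonist of BMP2 and BMP4, and had the highest level per length of the 10 genes in Veh, at 91.8 CPM per kb. Its levels were 352.3 and 408.9 CPM for Veh, 150.9 and 151.5 for RA, 122.8 and 116.9 for NR, and 44.9 and 47.7 for NRRA. Both single treatments lay far below Veh and NRRA lay below both, with no overlap between conditions. The falls were 2.52-fold in RA (log2 -1.33, SE 0.05, adjusted p = 1.87e-16), 3.18-fold in NR (log2 -1.67, SE 0.06, adjusted p = 8.39e-19) and 8.22-fold in NRRA (log2 -3.04, SE 0.06, adjusted p = 6.69e-24). In NRRA, *Grem1* stood at 11.2 CPM per kb, below *Id3* (33.1) and *Id1* (15.9), both of which it exceeded in Veh.

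The promoter of *Grem1* is shown because this gene fell most. The window is chr2:113758649-113758898 on the minus strand, from RefSeq on GRCm38.p6, with the same capitals as above.
Grem1: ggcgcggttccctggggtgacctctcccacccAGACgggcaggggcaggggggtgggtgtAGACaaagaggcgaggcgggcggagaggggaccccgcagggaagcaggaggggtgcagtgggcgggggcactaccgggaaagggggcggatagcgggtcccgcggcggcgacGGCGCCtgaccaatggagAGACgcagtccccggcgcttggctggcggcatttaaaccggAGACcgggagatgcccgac
It held 1 GGCGCC, 78 bases before the start, and 4 copies of GTCT or AGAC. It also held 1 AGGTCA, a half-site of the retinoic acid receptor, read on either strand, which 1 of the 7 members and 14% of all windows held.

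*Bmp4* (chromosome 14, 46383520 to 46390669, minus strand, with 4.0% of exon bases overlapping *Gm15217* on the other strand) encodes the ligand. It was at 6.93 and 7.04 CPM for Veh, 4.33 and 4.44 for RA, 23.1 and 24.8 for NR, and 20.01 and 21.0 for NRRA. RA was lowest, and both conditions with diluted medium were above both with complete medium. The fall in RA was 1.59-fold (log2 -0.67, SE 0.13, adjusted p = 0.000191), and the rises were 3.43-fold in NR (log2 1.78, SE 0.10, adjusted p = 3.89e-14) and 2.94-fold in NRRA (log2 1.55, SE 0.10, adjusted p = 3.31e-13). The difference between NRRA and NR (log2 -0.23, SE 0.08, adjusted p = 0.0185) missed the threshold with DESeq2 (adjusted p = 0.107), with total counts (-0.14, adjusted p = 0.127), without the second NR library (adjusted p = 0.176) and without the first NRRA library (adjusted p = 0.144).

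*Atoh8* (chromosome 6, 72206177 to 72235577, minus strand), a bHLH factor gene, moved in the same directions as *Bmp4*. It was at 3.12 and 4.33 CPM for Veh, 1.48 and 1.53 for RA, 16.7 and 16.8 for NR, and 9.58 and 10.0 for NRRA. The 4 conditions did not overlap. *Atoh8* was 2.46-fold lower in RA (log2 -1.30, SE 0.21, adjusted p = 1.21e-05), 4.51-fold higher in NR (log2 2.17, SE 0.13, adjusted p = 2.02e-13) and 2.64-fold higher in NRRA (log2 1.40, SE 0.14, adjusted p = 2.01e-09), and fell by 0.77 on the log2 scale from NR to NRRA (SE 0.10, adjusted p = 4.54e-07).

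Fibroblast markers are given beside *Bmp4* and *Atoh8*. Of 10 such markers, 1 was higher and 6 lower in RA than in Veh, 9 higher and 0 lower in NR, and 7 higher and 3 lower in NRRA, the latter being *Lum* (log2 -0.74), *Fbln2* (-0.24) and *Col5a1* (-0.11). Their summed level, to which abundant collagen genes give most, ordered the conditions RA, Veh, NRRA, NR, as did both genes, while single markers did not all follow that order. Summed muscle and peritubular markers (5 genes) ran from 167 to 172.6 CPM in Veh, 136.4 to 141.1 with RA, 672.8 to 688 with NR and 1085 to 1095 with NRRA, so they were highest in NRRA where both genes were highest in NR. Summed macrophage markers (5 genes) ran from 253.1 to 254.9 CPM in Veh, 202.9 to 223.2 with RA, 286.4 to 288.1 with NR and 263.4 to 277.4 with NRRA. The part of the cells holding these markers in the changes of *Bmp4* and *Atoh8* was not tested. *Grem1* was lower in NR and NRRA, where the fibroblast markers were higher. The germ cell stage also moved: 8 markers of undifferentiated spermatogonia summed to between 852.7 and 919.1 CPM for Veh, 327.5 and 334.8 for RA, 742.9 and 757.6 for NR, and 141.5 and 141.6 for NRRA, and their part in the falls of *Grem1* and *Smad7* was not tested. That sum was higher in NR than in RA, while *Grem1* and *Smad7* were lower in NR than in RA. By mean level, *Gfra1*, *Zbtb16* and *Nanos2* were highest in NR, *Eomes* was highest in RA and the others were highest in Veh. The 7 markers of differentiating spermatogonia summed to between 243.8 and 258.2 CPM in Veh, 1299 and 1302 with RA, 256.1 and 263.6 with NR, and 1733 and 1776 with NRRA. The sums of these and of the muscle and peritubular markers were highest in NRRA, as were *Id2*, *Id3*, *Smad6* and *Smad9*. The part of the cells holding these markers in the levels of those 4 genes was not tested. *Stra8* and *Acta2*, at means of 937.4 and 878.3 CPM in NRRA, gave most to the sums there. The muscle markers *Myh11* and *Des* were at means of 3.43 and 5.90 CPM in NRRA. Which cells held the muscle and peritubular transcripts was not tested. Single markers did not all follow: by mean level, *Cyp26a1*, *Rec8* and *Sohlh2* were highest in RA, *Sohlh1* and *Myh11* in NR, and *Des* in Veh. Of the other testis cell types, Sertoli cell markers (5 genes) summed to at most 46.3 CPM, endothelial markers (4 genes) to at most 15.1 and Leydig cell markers (5 genes) to at most 15.1.

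**Figure D3:**
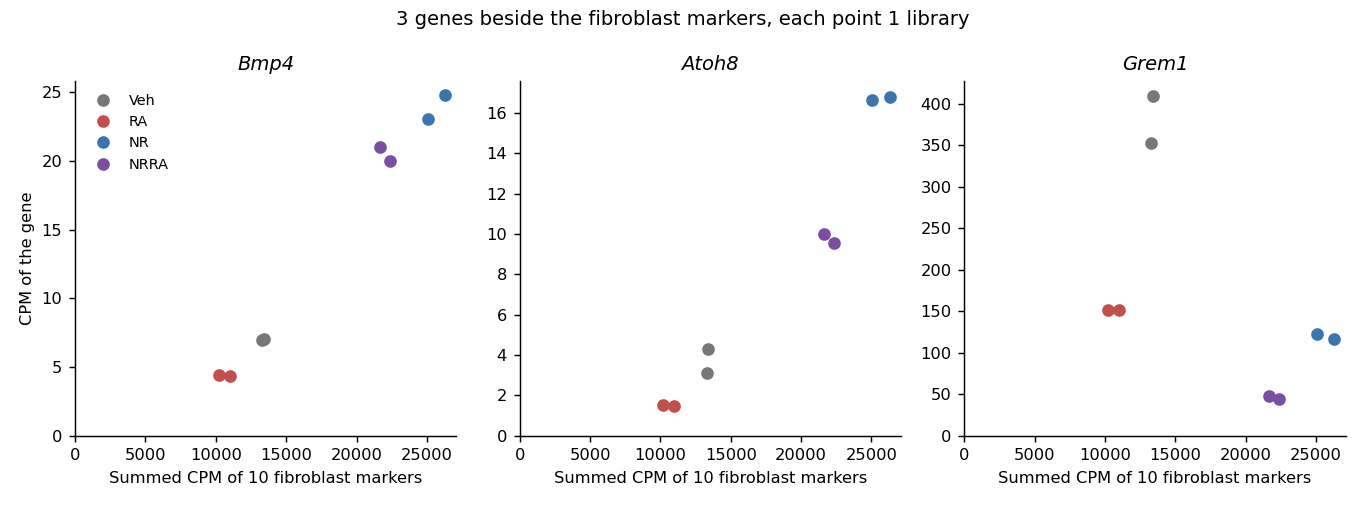
CPM of *Bmp4*, *Atoh8* and *Grem1* (vertical axes, from 0) beside the summed CPM of 10 fibroblast markers (horizontal axis, from 0), with each point 1 of the 8 libraries. *Bmp4* and *Atoh8* are above 9 CPM in the 4 NR and NRRA libraries, where the marker sum is at least 21650, while *Grem1* is highest in the 2 Veh libraries.

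The interaction asks whether RA acted differently under nutrient restriction than in complete medium, as the RA effect in diluted medium (NRRA against NR) minus that in complete medium (RA against Veh). It passed the test for 6 of the 10 genes, 4 higher and 2 lower, beside 6.37% and 6.58% of all tested genes. At 2-fold, it was passed by 0 of the 10, beside 0.786% higher and 1.46% lower of all tested genes. The 4 with a higher RA effect under restriction were *Id3* (0.98, SE 0.09, adjusted p = 1.4e-08), *Id1* (0.77, SE 0.11, adjusted p = 1.62e-05), *Smad6* (0.70, SE 0.11, adjusted p = 8.08e-05) and *Id2* (0.67, SE 0.15, adjusted p = 0.00292), all on the log2 scale. For *Id3*, the log2 change with RA was -0.19 in complete medium and 0.79 under restriction. For *Id1*, it was -0.71 and 0.07: RA lowered *Id1* in complete medium, while under restriction, where *Id1* was already low, its change did not pass the test.

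The interaction was negative for *Smad7* (-0.34, SE 0.08, adjusted p = 0.00501), which RA lowered in both media, and for *Bambi* (-0.66, SE 0.19, adjusted p = 0.0176). The *Bambi* value missed the threshold with DESeq2 (-0.67, adjusted p = 0.0662), without the second RA library (-0.63, adjusted p = 0.0768), without the second NR library (-0.55, adjusted p = 0.135) and without the first NRRA library (-0.50, adjusted p = 0.109). For *Grem1* the interaction was -0.04 (SE 0.08, adjusted p = 0.819), and without the second Veh library -0.18 (adjusted p = 0.0316). For *Bmp4* it was 0.44 (SE 0.15, adjusted p = 0.0571), and with a GC content and gene length trend removed 0.44 (adjusted p = 0.0379). For *Atoh8* it was 0.53 (SE 0.23, adjusted p = 0.151) and for *Smad9* 0.29 (SE 0.33, adjusted p = 0.644).

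**Figure D4:**
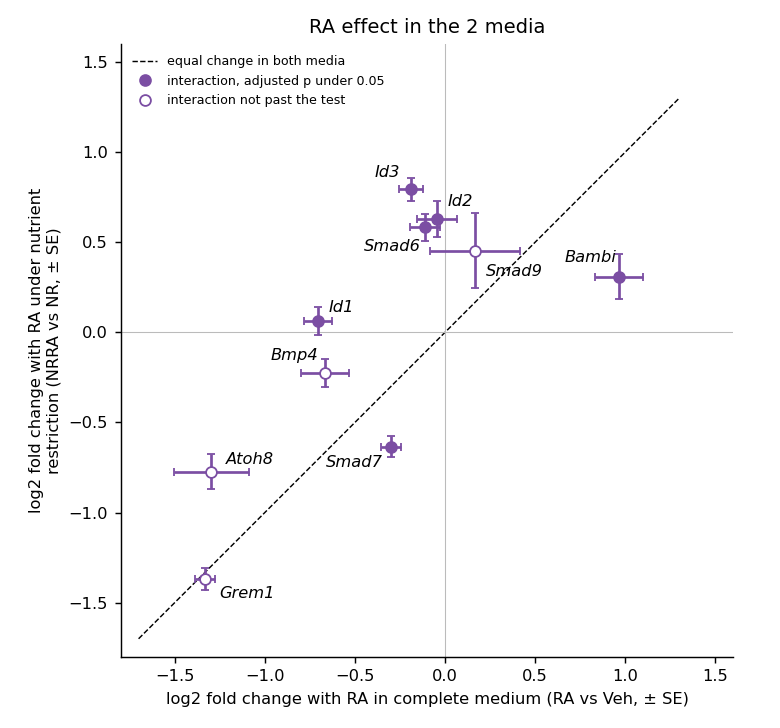
log2 fold change with RA in complete medium (horizontal axis, ± SE) and under nutrient restriction (vertical axis, ± SE) for the 10 genes, with filled points where the interaction passed the test and a dashed line of equal change. *Id1*, *Id2*, *Id3* and *Smad6* lie above the line, *Smad7* and *Bambi* lie below it, and *Grem1* lies on it.

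Adding RA to restricted cultures (NRRA against NR) raised 4 of the 10 genes and lowered 4, beside 21.3% and 22.1% of all tested genes. At 2-fold, 0 rose and 1 fell (*Grem1*), beside 4.56% and 4.14%. *Id2*, *Id3*, *Smad6* and *Bambi* rose, and *Smad7*, *Atoh8*, *Bmp4* and *Grem1* fell. The rise of *Bambi* (log2 0.31, SE 0.13, adjusted p = 0.0497) was lost with DESeq2 (adjusted p = 0.208), without the first NR library (0.18, adjusted p = 0.391) and without the second NRRA library (0.12, adjusted p = 0.581), among others, and was 0.47 without the first NRRA library (adjusted p = 0.00964). Adding restriction to RA (NRRA against RA) raised 6 and lowered 3, beside 20.9% and 19.4%, with 2 higher (*Atoh8* and *Bmp4*) and 1 lower (*Grem1*) at 2-fold, beside 4.61% and 3.68%. *Atoh8* was 6.49-fold and *Bmp4* 4.66-fold higher in NRRA than in RA. *Bambi* fell between them (log2 -0.44, SE 0.12, adjusted p = 0.00319), by less without the first NRRA library (-0.28, adjusted p = 0.112). NR against RA raised 2 (*Atoh8*, 11.1-fold, and *Bmp4*, 5.45-fold) and lowered 4 (*Id3*, *Smad7*, *Bambi* and *Grem1*), beside 24.5% and 23.8%. At 2-fold both rises and 0 of the falls were called, beside 6.87% and 5.62%. Without the first NR library, the difference in *Id3* was -0.21 (adjusted p = 0.055).

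Among the 8 other BMP ligands tested of 13 listed, 3 rose and 2 fell in RA, 1 rose and 3 fell in NR, and 2 rose and 3 fell in NRRA. *Bmp2* had mean levels of 16.3, 22.4, 5.57 and 4.19 CPM in Veh, RA, NR and NRRA, so it rose with RA (log2 0.45, adjusted p = 0.00107) and fell in NR (-1.56, adjusted p = 2.58e-10) and NRRA (-1.95, adjusted p = 1.58e-12). This was the opposite of *Bmp4* in each of the 3 comparisons. *Bmp6* was at 14.0 and 12.8 CPM for Veh, 18.2 and 16.7 for RA, 10.98 and 14.1 for NR, and 33.5 and 36.9 for NRRA, and its interaction was 1.11 (SE 0.14, adjusted p = 2.65e-06). *Gdf6*, a ligand of the same family, rose from between 0.73 and 0.79 CPM in Veh to between 7.95 and 8.54 in NR (log2 3.43, adjusted p = 5.69e-13) and between 4.37 and 5.18 in NRRA (log2 2.64, adjusted p = 2.84e-10).

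Of 10 other antagonists tested of 12 listed, 1 rose and 6 fell in RA, 4 rose and 2 fell in NR, and 1 rose and 7 fell in NRRA. *Chrd*, encoding chordin, fell in RA (log2 -1.91, adjusted p = 2.18e-13) and NRRA (-2.17, adjusted p = 2.83e-15), with a change of 0.05 in NR (adjusted p = 0.693). *Chrdl1*, a chordin relative, rose in all 3 (log2 2.06, 1.97 and 3.39, with adjusted p = 8.25e-06, 1.8e-05 and 1.82e-11) from 0.64 and 0.68 CPM in Veh to 7.93 and 6.04 in NRRA. *Sost*, encoding sclerostin, was under 1 CPM in every library and fell in all 3 (adjusted p = 0.0133, 0.000332 and 0.00295). *Fst*, encoding follistatin, was picked after its values were seen, at 144.5 and 144.2 CPM in NR beside 32.8 and 36.4 in Veh and 28.9 and 27.4 in NRRA.

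Of the 10 receptors and co-receptors, 3 rose and 4 fell in RA, 5 rose and 3 fell in NR, and 4 rose and 4 fell in NRRA. The type II receptor gene *Bmpr2* was at 98.3 and 107.7 CPM in Veh, 318.5 and 308.3 in NR, and 209.7 and 203.3 in NRRA, a rise of 1.61 in NR and 1.00 in NRRA on the log2 scale (adjusted p = 1.99e-19 and 2.31e-15). *Acvr2a*, another type II receptor gene, rose by 1.17 and 1.04 (adjusted p = 3.54e-12 and 1.48e-11). The type I receptor gene *Acvrl1* and the co-receptor gene *Rgma* fell in all 3 comparisons, in NRRA by 1.20 (adjusted p = 5.4e-16) and 1.42 (adjusted p = 1.69e-17). Of 10 signal transducers, 2 rose and 5 fell in NRRA, and 0 of them changed 2-fold in any comparison against Veh. In NRRA, 30.1% of all tested genes rose and 28.7% fell, and at 2-fold 9.91% and 6.02%. With RA these shares were 19.8% and 23.4%, and at 2-fold 4.74% and 2.75%. With NR they were 21.7% and 22.2%, and at 2-fold 5.33% and 2.96%.

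Of 8 other target genes of the pathway, 2 rose and 3 fell in RA, 4 rose and 3 fell in NR, and 1 rose and 4 fell in NRRA. The homeobox genes *Msx1* and *Msx2* fell in all 3, in NRRA by 2.38 (SE 0.25, adjusted p = 4.6e-09) and 1.80 (SE 0.13, adjusted p = 4.24e-12) on the log2 scale, while *Id2*, *Id3* and *Smad6* rose there. *Msx1* was low, at 4.11 and 3.65 CPM in Veh and 0.64 and 0.83 in NRRA, the latter from 18 and 26 reads. *Id4* was at 14.7 and 13.9 CPM for Veh, 4.23 and 3.78 for RA, 19.5 and 22.2 for NR, and 14.6 and 15.8 for NRRA. RA lowered *Id4* in complete medium (log2 -1.85, SE 0.13, adjusted p = 4.68e-12). Under restriction, both NRRA libraries were also below both NR libraries. The NRRA libraries of *Id4* overlapped those of Veh, and its interaction was 1.39 (SE 0.15, adjusted p = 2.82e-07). *Dlx5* and *Sp7*, which rose in NR, were at most at 1.06 CPM in any library.

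Among 6 bHLH factor genes, 2 rose and 3 fell in RA, and 3 rose and 2 fell in NR. In NRRA, 3 rose and 1 fell. *Sohlh1*, a germ cell bHLH factor gene, was at 25.9 and 23.0 CPM in Veh, 50.9 and 51.6 in NR, and 42.5 and 46.0 in NRRA, a rise of 1.07 in NR and 0.86 in NRRA on the log2 scale (adjusted p = 5.89e-12 and 2.08e-10). *Neurog3*, a bHLH factor gene of early spermatogonia, had 88 and 110 reads in the NR libraries, 8 and 9 in Veh, 5 and 8 in NRRA, and 0 and 1 in RA. Of 16 tested genes of the TGF-beta and activin branch, 18 being listed, 5 rose and 5 fell in RA, 8 rose and 4 fell in NR, and 5 rose and 7 fell in NRRA. These counts stand beside the same shares of all tested genes. The ligand gene *Tgfb2* was at 10.2 and 9.80 CPM in Veh and 11.8 and 10.6 in RA. It was at 34.8 and 35.4 CPM in NR and 101.3 and 105.4 in NRRA. Its rise in NRRA against Veh was 3.37 on the log2 scale (SE 0.07, adjusted p = 3.77e-23). *Tgfb3* rose by 1.64 in NR and 1.10 in NRRA (adjusted p = 2.17e-17 and 7.53e-14). *Tgfb1* and the activin subunit gene *Inhbb* fell in NRRA, by 1.40 (adjusted p = 4.24e-18) and 1.82 (adjusted p = 7.31e-21).

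Some members moved alike across the 8 libraries, which fall into 4 conditions, so the following values are descriptions. Pearson's r of log2 CPM was 0.98 for *Atoh8* with *Bmp4*, 0.97 for *Smad7* with *Grem1* and 0.96 for *Id2* with *Smad6*, while it was -0.92 for *Smad7* with *Smad9*. Among 10898 tested genes with a mean of at least 10 CPM, those most like *Id1* over the 8 libraries included *Gm26811*, *Mcm6*, *Alyref* and *Ptma* (r from 0.96 to 0.98). Those most like *Bmp4* were *C3*, *Laptm4a*, *Adam23*, *Cacna1c* and *Cyp1b1* (r from 0.997 to 0.999). Pearson's r leaves out the size of a change. Mean levels in Veh and NR were 404.2 and 507.7 CPM for *Laptm4a*, and 132.3 and 771.2 for *Cyp1b1*. In Veh and RA they were 123 and 112.1 CPM for *Alyref*, and 199.3 and 153.2 for *Mcm6*.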

How the data were processed

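RNA-seq libraries of 4 conditions (Veh, RA, NR and NRRA, 2 each) were grouped by their labels, in which NR is named EBSS and NRRA is named RA_EBSS. Per the submitters' processing notes, STAR 2.6.1c and featureCounts 1.6.4 were used with the mm10 build. The annotation release and the strand setting are not given in the sources used here, so counts of overlapping genes are uncertain. The authors deposited whole-number counts per gene without normalization, and the authors tested them with DESeq2. Each of the 8 columns matched 1 label and 0 columns had no sample.

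Counts were filtered with filterByExpr by condition, scaled by TMM and fitted in edgeR 4.0.16 (R 4.3.3) by the quasi-likelihood model, with 1 coefficient per condition and 4 residual degrees of freedom. edgeR's F test with Benjamini-Hochberg adjustment served 6 pairwise comparisons and the test of whether the RA effect differed between media. The script was tested on simulated data. SE is the log2 fold change divided by the square root of F, without its sign. CPM per kb divides by GENCODE M21 exon length. DESeq2 1.42.0, DESeq2 size factors, total counts, no filter, a replicate block, removal of a trend in GC content and gene length, the compared groups alone and leaving out each library were alternatives. Figures were drawn with matplotlib 3.10.9.

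The members and the gene lists were chosen with earlier results of these data known. All 10 members were named in each comparison. From each other pathway list, those past the test and 2-fold in at least 1 comparison against Veh were named, at most 4 a list by the change in NRRA, and *Id4*. Some genes that these rules name are not reported here. Replicate libraries differed beyond sampling noise. P-values rest on the spread between the 2 libraries of a condition, estimated over all 8 libraries together. They do not measure the spread within the compared conditions alone.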

Additional observations from a re-analysis of the deposited data

Results flagged for a closer look

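The RA effect differed between the media by the test of the difference itself (edgeR's quasi-likelihood F test on the interaction, Benjamini-Hochberg adjustment over 20477 genes) for 6 of the 10 genes. On the log2 scale, the effect under nutrient restriction minus that in complete medium was 0.77 for *Id1* (adjusted p = 1.62e-05), 0.674 for *Id2* (adjusted p = 0.00292), 0.981 for *Id3* (adjusted p = 1.4e-08) and 0.696 for *Smad6* (adjusted p = 8.08e-05). It was -0.335 for *Smad7* (adjusted p = 0.00501) and -0.655 for *Bambi* (adjusted p = 0.0176). Across the alternatives run, the adjusted p went up to 0.000946 for *Id1*, 0.0342 for *Id2*, 3.45e-06 for *Id3*, 0.00239 for *Smad6*, 0.0417 for *Smad7* and 0.135 for *Bambi*.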

How the results depend on the processing

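Counts of members past the test stayed within 1.5 times the reported count in 221 of 222 recomputed counts. The exception was the count of members past the test and 2-fold in the interaction, which ran from 0 to 1 when 1 library was left out (1 without the second Veh library). Of 1110 single values, 1040 kept their direction and their side of the threshold, 48 lost the call, 5 gained one and 17 changed sign. The cause was not tested. Total counts in place of TMM shifted the median log2 change of all genes in NRRA against Veh from 0.03 to 0.14 and in RA against Veh from -0.02 to 0.08.

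The values that changed sign were small and not called. With total counts, *Id2* was 0.058 in RA against Veh and *Smad6* was -0.034 in NR against RA. In NR against RA, *Id2* was 0.018 without the filter, 0.016 with the GC content and gene length trend removed and 0.014 with that trend and the replicate block, and *Grem1* in the interaction was 0.02 with the trend removed, alone or with the block. When 1 library was left out, *Id2* ran from -0.066 to 0.02 in RA against Veh, from -0.073 to 0.013 in NR against Veh and from -0.035 to 0.029 in NR against RA. *Smad6* ran from -0.12 to 0.001 in NR against Veh and from -0.008 to 0.093 in NR against RA, *Smad9* from -0.069 to 0.178 in NR against RA, and *Grem1* from -0.181 to 0.028 in the interaction. Calls gained were *Id1* in NRRA against RA with the trend removed (0.18, adjusted p = 0.0463) and *Smad9* in NRRA against NR with total counts (0.53, adjusted p = 0.0382), beside those of *Bmp4* and *Grem1* in the interaction.

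No pairing of same-numbered libraries was seen: their deviations from the condition means correlated between -0.033 and 0.023 over the tested genes. Sampling noise in low counts lowers such correlations, so they cannot settle whether libraries were paired. With the replicate block, members past the test were 7 in RA against Veh, 6 in NR against Veh, 10 in NRRA against Veh and 6 in the interaction, and 8 in place of 9 in NRRA against RA, where *Smad9* was 0.53 (adjusted p = 0.0513). With 2 libraries a condition and 27 to 79 reads per library, *Smad9* had the widest errors of the 10 genes.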
